A study of Homo sapiens with 6 samples.

Results

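The genes described here are the receptors through which the ligands TRAIL, Fas ligand and tumour necrosis factor start apoptosis, together with the proteins that join those receptors to a caspase. The set holds 9 genes: the TRAIL receptor genes TNFRSF10A, TNFRSF10B, TNFRSF10C and TNFRSF10D, the tumour necrosis factor receptor gene TNFRSF1A, FAS, the adaptor gene FADD, the initiator caspase gene CASP8 and its inhibitor CFLAR. They were chosen by function, around TNFRSF10D, whose difference between cell lines had already been seen in these same values. Members were the array rows whose only gene symbol in the platform annotation was one of these 9. That gave 10 of the 15492 rows, with 2 rows for TNFRSF10C, and 9 of the 12448 genes that have a row of their own.

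RNA from 3 derivatives of HEK293, a line of human embryonic kidney origin, was profiled on an Affymetrix whole-transcript array. The first carried a doxycycline-inducible wild-type APE1 (wtAPE1), the second APE1 fused to ubiquitin, also inducible (ubAPE1), and the third the empty vector (vector). Doxycycline was given at 2 µg per ml for 16 h or left out. All 6 groups, the vector line included, share the tet-on system and a medium that held 1 µg of puromycin per ml. The sources used here do not say whether a derivative is 1 clone, nor which promoter drives the transgene. Each group has 1 deposited column, the authors' mean of 3 biological replicates, so the spread between replicates is not in these values and the number of arrays limits the precision.

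A death receptor carries a death domain inside the cell. When its ligand clusters the receptors, they recruit FADD, FADD recruits the precursor of caspase 8, and caspase 8 activates itself and cuts the executioner caspases. TNFRSF10A (DR4) and TNFRSF10B (DR5) signal in this way, whereas TNFRSF10C has no death domain and TNFRSF10D a truncated one, so both bind TRAIL as decoys. TNFRSF10B, TNFRSF10D and FAS are known targets of the tumour suppressor p53. APE1, encoded by APEX1, cuts DNA at abasic sites during base excision repair and is also known as a redox factor for p53, AP-1 and NF-kB.

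Before the members, the labels and columns were checked. The APEX1 response to doxycycline, relative to the median row, was 1.10 log2 in wtAPE1 cells and 0.88 in ubAPE1 cells, against 0.17 in vector cells. Column medians over the 11619 rows that passed the filter on low values (a mean of at least 5.03 log2) lay between 6.56 and 6.81, so differences are given relative to the median row, which is the row difference minus the median difference over those rows. Of the embryonic kidney markers, 6 of 7 passed the filter. Their summed linear level was 668 (with doxycycline) and 631 (without) in wtAPE1 cells, 675 and 638 in ubAPE1 cells, and 597 and 603 in vector cells. Of 8 blood cell markers 5 were measured and CD68 alone passed, with sums of 158 to 177 in the APE1 lines and 183 to 199 in vector cells. Sums of other marker lists, which their brightest genes dominate, were lower in the APE1 lines: the epithelial list summed to 1690 to 1990 in the APE1 lines and 2340 to 2450 in vector cells, the neuronal list to 676 to 824 and 1210 to 1310, and the fibroblast list to 957 to 1060 and 1130 to 1380. Of these lists 5 of 7 epithelial, 4 of 7 neuronal and 5 of 8 fibroblast markers passed the filter. The marker lists were chosen with earlier results of these data known, so differences of their genes are a description and carry no test. The epithelial genes EPCAM (-3.01 in wtAPE1 and -2.98 in ubAPE1 against vector), KRT19 (-0.85 and -0.89) and KRT18 (-0.43 and -0.41) were lower in both APE1 lines. KRT8 stood at 0.08 and -0.02, and CLDN3 at 0.25 and 0.13. In the neuronal list the enolase ENO2 was lower (-2.39 and -2.51), NEFL stood at -0.67 and -0.70, and SYP stood at 0.26 and 0.59. By gene the fibroblast list did not follow its sum, with medians of 0.17 and 0.08, COL3A1 at 0.71 and 0.60 and VIM at -0.27 and -0.31. The part of these shifts in the differences below was not tested, and in bulk RNA fewer cells of a type and less RNA per cell cannot be told apart.

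Of the 9 genes, 6 passed the filter: TNFRSF10B, TNFRSF10D, TNFRSF1A, FAS, FADD and CASP8. TNFRSF10A, both TNFRSF10C rows and CFLAR had means below it, so their values are near the dim end of the array and are given as levels with little weight. Levels are comparable between columns for 1 row, not between genes.

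TNFRSF10D, the decoy receptor with a truncated death domain, was the member that differed most between lines. Its level was 9.62 log2 with and 9.28 without doxycycline in wtAPE1 cells, 9.57 and 9.70 in ubAPE1 cells, and 8.00 and 8.12 in vector cells. All 4 columns of the APE1 lines were above both vector columns, and the gap between the highest vector column and the lowest APE1 column was 1.16 log2. Within a line, the level with minus that without doxycycline was 0.35 (wtAPE1), -0.13 (ubAPE1) and -0.12 (vector) log2 as deposited, each smaller in size than that gap. In the order of levels the 2 vector columns came lowest, then wtAPE1 without doxycycline, ubAPE1 with it, wtAPE1 with it and ubAPE1 without it. The steps between these last 4 were 0.29, 0.05 and 0.07 log2, and only the first exceeded the moderated residual SD of this row, 0.174 log2.

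Relative to the median row, TNFRSF10D was higher than in vector cells by 1.54 ± 0.17 log2 in wtAPE1 cells and by 1.65 ± 0.17 in ubAPE1 cells (SE of the additive fit, n = 2 columns per line). These are 2.91-fold and 3.14-fold. The SE comes from the fit of columns as deposited, so it also holds shifts between column medians. With doxycycline the differences were 1.69 and 1.68 log2, and without it 1.37 and 1.62, so the line difference was also there without the inducer. The row ranked 5 (wtAPE1) and 4 (ubAPE1) from the top among the 11619 rows. This contrast was used in choosing the members, so the values are a description and carry no test.

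TNFRSF10B, which encodes the signalling receptor DR5, had levels of 8.26 log2 with and 8.00 without doxycycline in wtAPE1 cells, 8.25 and 8.36 in ubAPE1 cells, and 7.85 and 7.91 in vector cells. All 4 columns of the APE1 lines were above the vector columns here too, but the lowest of them, wtAPE1 without doxycycline, was only 0.09 log2 above the higher vector column. Relative to the median row, TNFRSF10B was higher than in vector by 0.40 ± 0.16 log2 in wtAPE1 cells and 0.51 ± 0.16 in ubAPE1 cells, or 1.32-fold and 1.42-fold. As deposited, these differences were 0.25 and 0.43 log2.

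The other TRAIL receptor rows were dim. TNFRSF10A, the gene of the signalling receptor DR4, lay at 3.24 and 3.25 log2 in wtAPE1 cells, 3.38 and 3.43 in ubAPE1 cells, and 3.45 and 3.31 in vector cells, with and without doxycycline. The wtAPE1 columns were the lowest, the higher of them 0.06 log2 below the nearest vector column, and the ubAPE1 and vector columns overlapped. The line differences relative to the median row were 0.01 (wtAPE1) and 0.10 (ubAPE1). For TNFRSF10C, the decoy without a death domain, the brighter row had 4.84 and 4.96 log2 in wtAPE1 cells, 4.92 and 4.75 in ubAPE1 cells, and 4.88 and 4.81 in vector cells. The dimmer row had 3.89 and 4.04, 3.95 and 3.64, and 3.87 and 3.75 log2 in the same order. The brighter row overlapped between all lines. In the dimmer row the wtAPE1 columns were above the vector columns by a gap of 0.02 log2, and the ubAPE1 columns overlapped both.

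FAS and TNFRSF1A differed little between lines. FAS, the receptor of Fas ligand, had 5.91 and 5.81 log2 with and without doxycycline in wtAPE1 cells, 5.66 and 5.97 in ubAPE1 cells, and 5.70 and 6.02 in vector cells. TNFRSF1A, whose product recruits FADD only through the adaptor TRADD, had 6.74 and 6.75, 6.75 and 6.73, and 6.81 and 6.76 in the same order, a range of 0.07 log2 as deposited. The FAS columns overlapped between lines, and the vector columns of TNFRSF1A were the highest of its 6. Line differences relative to the median row were 0.15 (wtAPE1) and 0.03 (ubAPE1) for FAS and 0.11 and 0.03 for TNFRSF1A. For both genes their sign turned as deposited.

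**Figure D1:**
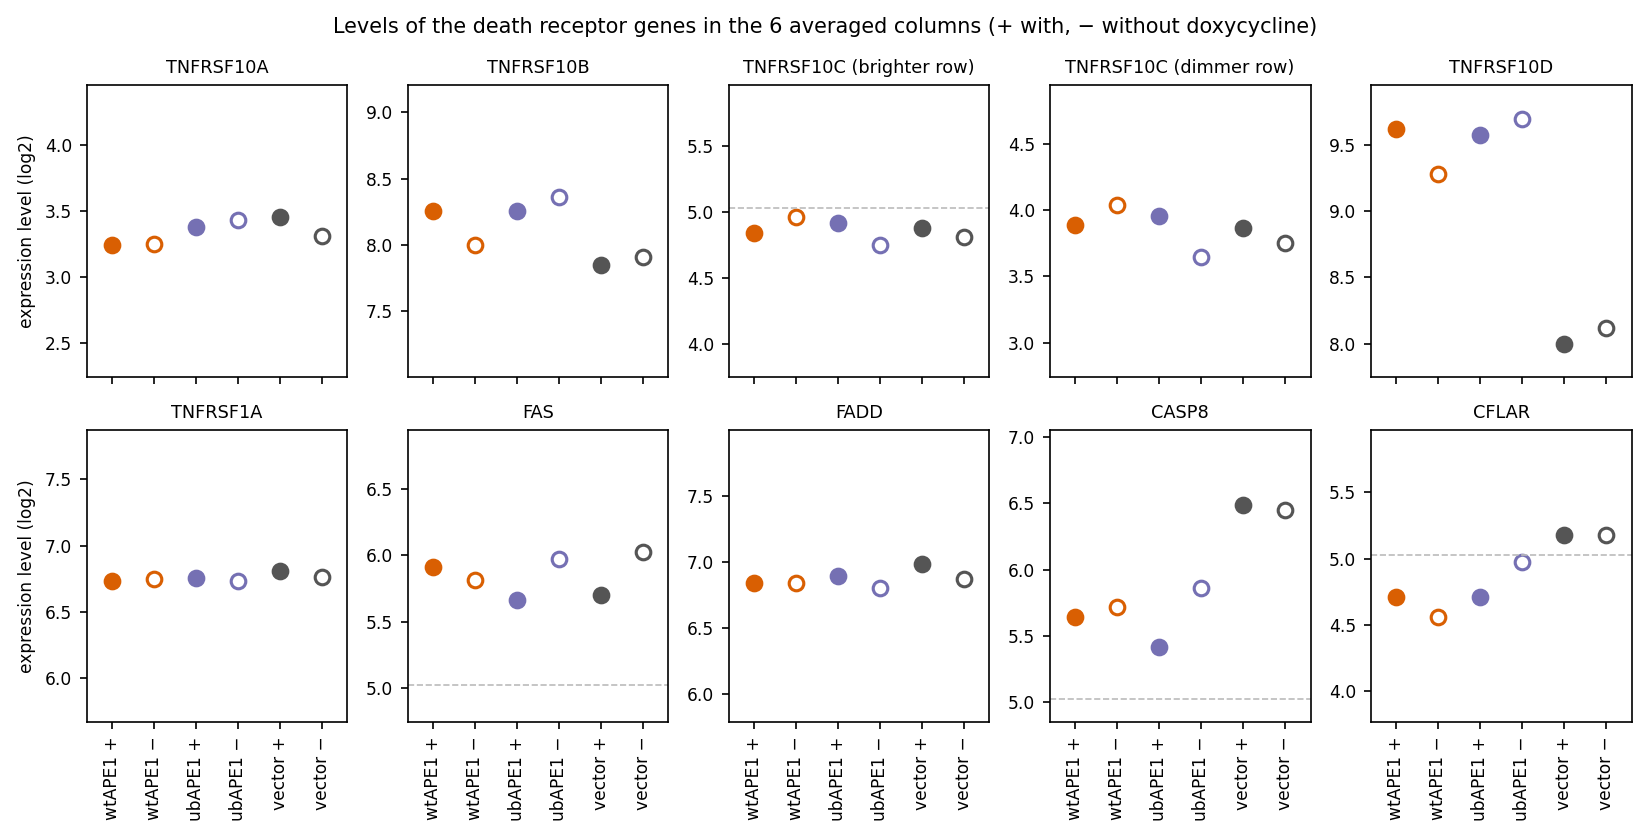
Expression level (log2) of the 10 member rows in the 6 columns, each the authors' mean of 3 replicates (filled, with doxycycline; open, without); each panel spans 2.2 log2, and the dashed line is the row filter at 5.03 log2. TNFRSF10D lies at 9.28 to 9.70 in the APE1 lines and 8.00 to 8.12 in vector cells, and CASP8 at 5.41 to 5.86 in the APE1 lines and 6.45 to 6.49 in vector cells.

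Downstream of the receptors, CASP8 differed in the other direction. Its level was 5.64 log2 with and 5.71 without doxycycline in wtAPE1 cells, 5.41 and 5.86 in ubAPE1 cells, and 6.49 and 6.45 in vector cells. All 4 columns of the APE1 lines were below both vector columns, with a gap of 0.59 log2, against a distance of up to 0.45 log2 between the doxycycline states of 1 line. Relative to the median row the difference from vector was -0.64 ± 0.17 log2 in wtAPE1 cells and -0.75 ± 0.17 in ubAPE1 cells, or 1.56-fold and 1.69-fold lower. With doxycycline it was -0.78 and -0.97 log2, and without doxycycline -0.52 and -0.55, which is short of 1.5-fold in both lines. CASP8 ranked 346 (wtAPE1) and 206 (ubAPE1) from the bottom of 11619 rows.

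CFLAR, which encodes the caspase-like inhibitor FLIP that competes with caspase 8 for FADD, lies near CASP8 in the genome. Its level was 4.71 and 4.56 log2 in wtAPE1 cells, 4.71 and 4.97 in ubAPE1 cells, and 5.18 in both vector columns. The vector columns were the highest, at differences of -0.40 (wtAPE1) and -0.26 (ubAPE1) log2 relative to the median row, for a row below the filter. FADD, the adaptor between receptor and caspase, had 6.84 and 6.84, 6.90 and 6.80, and 6.99 and 6.87 log2 in the same order. Its columns overlapped between the ubAPE1 and vector lines, and its differences relative to the median row were 0.06 and -0.0043 log2, negative in both lines as deposited.

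Promoter windows are shown for CASP8 and CFLAR because these near neighbours on chromosome 2 were both lower in all 4 APE1 columns than in the vector columns. Of the 9 members, 5 had an entry in the RefSeq promoter table for GRCh38.p14, which gives 250 bases before and 50 after a transcript start. The array's build, hg 18 in the submitters' processing notes, is another one, so the positions belong to the sequences alone. Capitals mark matches to motifs searched on both strands: a GC box (GGGCGG), AP-1 (TGANTCA), an E-box (CACGTG), and the NF-kB and p53 half-site motifs. The first window of each gene, on the plus strand, reads as follows, at chr2:201233213-201233512 for CASP8 and chr2:201118466-201118765 for CFLAR.
CASP8: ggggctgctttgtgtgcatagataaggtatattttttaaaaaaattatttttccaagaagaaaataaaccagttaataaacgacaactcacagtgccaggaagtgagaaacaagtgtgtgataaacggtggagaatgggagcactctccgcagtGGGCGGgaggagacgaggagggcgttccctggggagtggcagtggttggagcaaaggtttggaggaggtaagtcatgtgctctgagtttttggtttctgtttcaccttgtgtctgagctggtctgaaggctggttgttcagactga
CFLAR: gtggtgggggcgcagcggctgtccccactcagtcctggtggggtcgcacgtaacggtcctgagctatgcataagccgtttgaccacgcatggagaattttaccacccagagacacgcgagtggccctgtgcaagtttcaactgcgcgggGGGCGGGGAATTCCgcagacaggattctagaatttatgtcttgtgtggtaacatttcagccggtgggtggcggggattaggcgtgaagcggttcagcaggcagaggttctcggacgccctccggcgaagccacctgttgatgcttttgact
The CASP8 window held 1 GC box and 46.3% G and C, and the CFLAR window 1 GC box, overlapping 1 NF-kB match, and 58.7% G and C. Both genes have further windows, not printed. For CASP8, that at chr2:201257785-201258084 held 1 AP-1 match and 1 p53 half-site, and that at chr2:201260286-201260585 held 1 AP-1 match. For CFLAR, chr2:201132531-201132830 held 1 AP-1 match, chr2:201140025-201140324 held 2 GC boxes, and chr2:201128715-201129014 held no match. Among 35116 windows of the same length, 45.0% held a GC box, 5.91% an NF-kB match, 7.71% an AP-1 match, 6.63% a p53 half-site and 7.26% an E-box. The matches are a description of these letters and say nothing of binding.

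Taken over the members, 2 of the 6 genes past the filter were at least 1.5-fold from the vector line in each APE1 line, TNFRSF10D higher and CASP8 lower. Among all 11619 rows, 4.38% were that far apart in wtAPE1 cells (0.74% higher and 3.64% lower) and 4.11% in ubAPE1 cells (0.645% higher and 3.46% lower). At 2-fold, TNFRSF10D alone remained, against 0.973% and 0.955% of all rows. The median of the 6 genes was 0.13 log2 in wtAPE1 cells and 0.03 in ubAPE1 cells, against 0 over all rows by construction. Since TNFRSF10D guided the choice of the set, nothing is read from these shares.

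**Figure D2:**
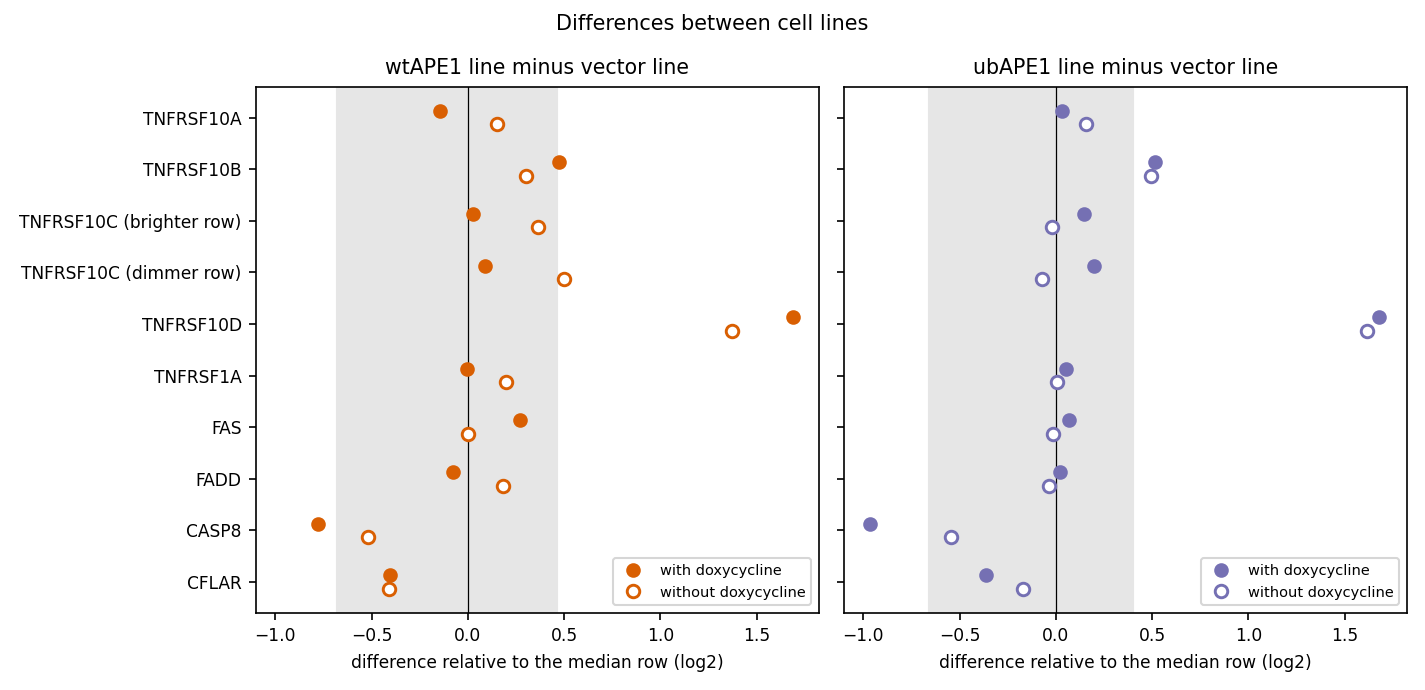
Differences between lines for each member row, APE1 line minus vector line relative to the median row (log2), with doxycycline (filled) and without (open); the grey band holds the central 95% of the 11619 rows for the mean over both states. TNFRSF10D lies between 1.37 and 1.69 log2 and CASP8 between -0.97 and -0.52.

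The ubAPE1 line was then set against the wtAPE1 line, a contrast that had no part in choosing the members. With limma's moderated test and Benjamini-Hochberg adjustment over all rows, 0 of the 6 members and 0 of 11619 rows (0.0%) passed a threshold of 0.05. At an unadjusted p under 0.05 the counts were 0 members and 47 rows (0.405%), and 0 members lay 1.5-fold apart, against 0.0947% of rows. For TNFRSF10D the difference was 0.12 log2, with a 95% interval of -0.28 to 0.52 (limma adjusted p = 0.999883, as for the other 5). For TNFRSF10B it was 0.12 log2 (-0.25 to 0.49) and for CASP8 -0.10 log2 (-0.50 to 0.29). The intervals reach past 0.2 log2 on both sides, so the test does not show that the lines were alike.

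The response to doxycycline was described next, line by line, from 1 column with and 1 without the drug, so these differences carry no test. At 1.5-fold, 0 of the 6 members stood out in each line, against 0.93% of all rows in wtAPE1 cells, 5.03% in ubAPE1 cells and 0.947% in vector cells. Relative to the median row, TNFRSF10D responded by 0.27 log2 in wtAPE1 cells, 0.00 in ubAPE1 cells and -0.07 in vector cells. TNFRSF10B had 0.19, 0.02 and -0.01 log2 in the same order. These 2 genes had their highest response in wtAPE1 cells, and it exceeded that of the vector line by 0.35 log2 for TNFRSF10D and 0.20 for TNFRSF10B. The dim rows of the other TRAIL receptors had their lowest response there. TNFRSF10A had -0.08, 0.08 and 0.19 log2, the brighter TNFRSF10C row -0.19, 0.30 and 0.12, and the dimmer row -0.22, 0.44 and 0.16. CASP8 responded by -0.14 log2 in wtAPE1 cells, -0.32 in ubAPE1 cells and 0.09 in vector cells. FAS had 0.02, -0.18 and -0.28 log2, so its lower level with doxycycline was seen in the ubAPE1 and vector lines. FADD (-0.07, 0.22 and 0.16) and TNFRSF1A (-0.09, 0.15 and 0.09) had small responses that were lowest in wtAPE1 cells.

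Gene length moved with the response in ubAPE1 cells. With genes cut into 4 equal classes by genomic length, the median response of the shortest class was 0.17 log2 and that of the longest -0.16, against -0.06 and 0.04 in wtAPE1 cells and -0.04 and 0.03 in vector cells. CASP8, at 54.2 kb in the gene table, is in the third class, whose median was -0.09 in ubAPE1 cells. With the length trend removed, the responses in ubAPE1 cells were -0.23 log2 for CASP8, 0.11 for TNFRSF10B, -0.02 for TNFRSF10D, -0.09 for FAS, 0.03 for TNFRSF1A and 0.01 for FADD. Those of FADD and TNFRSF1A in wtAPE1 cells were then 0.01 and -0.04. Differences from the vector line also moved with length. From the shortest to the longest class their medians fell from 0.13 to -0.13 log2 (wtAPE1) and from 0.08 to -0.10 (ubAPE1). With the length trend removed, these differences were -0.60 and -0.74 for CASP8 and 1.51 and 1.63 for TNFRSF10D.

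**Figure D3:**
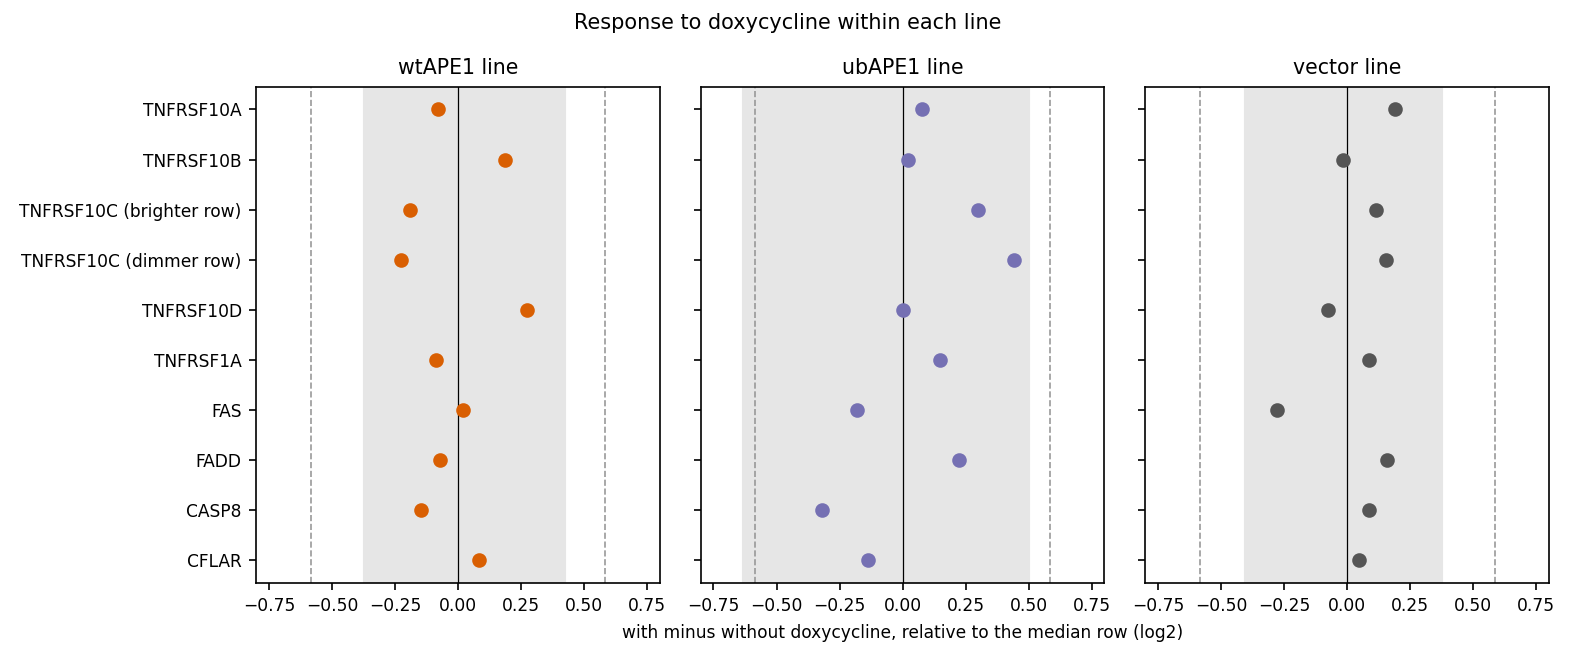
Response of each member row to doxycycline (with minus without, relative to the median row, log2) in the 3 lines; the grey band holds the central 95% of the 11619 rows and dashed lines mark 1.5-fold. All member rows lie inside the bands, from -0.32 (CASP8, ubAPE1) to 0.44 (dimmer TNFRSF10C row, ubAPE1).

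With the lines standing in for replicates, limma was used to test a doxycycline effect shared by all 3. It called 0 of the 6 members and 0 of 11619 rows (0.0%). At an unadjusted p under 0.05 the counts were 0 members and 194 rows (1.67%). For FAS the effect was -0.15 log2, with a 95% interval of -0.46 to 0.17 (limma adjusted p = 0.999962, the same for all 6). For TNFRSF10D it was 0.06 log2 (-0.26 to 0.39) and for CASP8 -0.13 log2 (-0.45 to 0.19). The fit used columns as deposited, so shifts between column medians add to its residual spread. With each column centred on its median, 0 members and 9 rows were called. The intervals reach about 0.17 log2 or further on both sides, so the test does not show that doxycycline left the members unchanged.

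The design also asks what induced APE1 changes beyond doxycycline, which a further term of the fit measures with 1 residual degree of freedom. Here too limma called 0 members and 0 rows (0.0%), and 0 members and 87 rows (0.749%) had an unadjusted p under 0.05. APEX1 itself was among the rows not called. Relative to the median row, its response exceeded that of vector cells by 0.94 log2 (wtAPE1) and 0.69 (ubAPE1). The 0 calls therefore do not show that induced APE1 left the members unchanged. For TNFRSF10D the induction term was 0.19 log2, with a 95% interval of -0.59 to 0.98 (limma adjusted p = 0.999918, the same for all 6). For CASP8 it was -0.34 log2 (-1.11 to 0.44) and for FAS 0.18 log2 (-0.60 to 0.96). Each of these intervals reaches past 1.5-fold on at least 1 side.

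The rest of the death receptor pathway was read from lists of its ligands, other receptors, adaptors, mitochondrial and executioner genes and known regulators. Of the 80 genes listed, 63 were measured and 52 passed the filter. Against the vector line, limma called 0 of these 52 in wtAPE1 cells and 0 in ubAPE1 cells, where 2.11% of all rows (0.103% higher, 2.01% lower) and 1.39% (0.0861% higher, 1.31% lower) were called. At an unadjusted p under 0.05, 13 and 9 of the 52 passed, against 17.1% and 11.5% of all rows. The count depended on scaling. With each column centred on its median, limma called 6 genes in wtAPE1 cells and 8 in ubAPE1 cells, with EDA2R, TNFRSF12A, BAX, BCL2 and PMAIP1 in both, but calls over all rows also grew, to 656 and 539, against 245 and 162. In the main setting the calls rest on differences as deposited, whereas the sizes given below are relative to the median row. These lists too were chosen with earlier results of these data known. Their counts and calls against the vector line are therefore a description and carry no test.

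Among ligands, TNF and LTA were below the filter, and LTB, a subunit of membrane lymphotoxin, differed by 0.24 log2 (wtAPE1) and 0.13 (ubAPE1). Among 5 other receptors, EDA2R stood highest. It encodes the receptor of ectodysplasin A2 and is a known p53 target. Its level was 5.53 log2 with and 5.14 without doxycycline in wtAPE1 cells, 5.35 and 5.53 in ubAPE1 cells, and 4.68 and 4.48 in vector cells. All APE1 columns were above the vector columns, which are below the filter level, so the gene passed through its APE1 columns. Its differences, 0.90 and 0.94 log2 relative to the median row, are therefore a description, and its calls under other settings carry the same limit. TNFRSF12A, the receptor of the ligand TWEAK, lay at -0.56 and -0.60 log2. TNFRSF21 lay at -0.49 and -0.58, NGFR at 0.11 and 0.27, and TNFRSF1B at 0.34 and 0.20.

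Of 18 adaptor and signalling genes, 0 were 1.5-fold from the vector line, against 4.38% (wtAPE1) and 4.11% (ubAPE1) of all rows. The largest differences were those of TAB2, an adaptor of the kinase TAK1 (-0.47 and -0.35 log2), and IKBKG, the regulatory subunit of the IkB kinase (0.37 and 0.33). IKBKG lay at 4.81 log2 with and 5.03 without doxycycline in vector cells, at or below the filter level. Its APE1 columns lay at 5.13 to 5.20, so it passed through them, and its difference is a description. CASP10, a caspase close to caspase 8 whose gene lies between CFLAR and CASP8, was below the filter, at -0.31 and -0.40 log2.

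In the mitochondrial and executioner arm, with 21 genes past the filter, 1 gene was 1.5-fold higher and 1 was 1.5-fold lower in each APE1 line. Over all rows, 0.74% were higher and 3.64% lower in wtAPE1 cells, and 0.645% and 3.46% in ubAPE1 cells. BAX, which permeabilises the outer mitochondrial membrane and is a known p53 target, had 8.40 and 8.36 log2 in wtAPE1 cells, 8.39 and 8.31 in ubAPE1 cells, and 7.64 and 7.69 in vector cells. All APE1 columns were above the vector columns, by 0.87 and 0.77 log2 relative to the median row. PMAIP1, which encodes the BH3-only protein NOXA and is also a known p53 target, had 8.86 and 8.56 log2 in wtAPE1 cells, 8.59 and 9.02 in ubAPE1 cells, and 9.47 and 10.02 in vector cells. The APE1 columns were all lower here, with differences of -0.89 and -0.86 log2. BCL2, the founding inhibitor of this arm, lay at -0.58 in both lines, and its relative BCL2L1 at 0.43 and 0.54.

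Of 7 regulator genes past the filter, JUN, a subunit of AP-1, was lowest, at -0.47 log2 in wtAPE1 cells and -0.59 in ubAPE1 cells. NFKB1, a subunit of NF-kB, stood at -0.40 and -0.26. ATF4, a stress response factor upstream of TNFRSF10B, stood at 0.33 and 0.31. DDIT3, which encodes CHOP and lies between ATF4 and TNFRSF10B in that response, was below the filter, at -0.61 and -0.57.

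**Figure D4:**
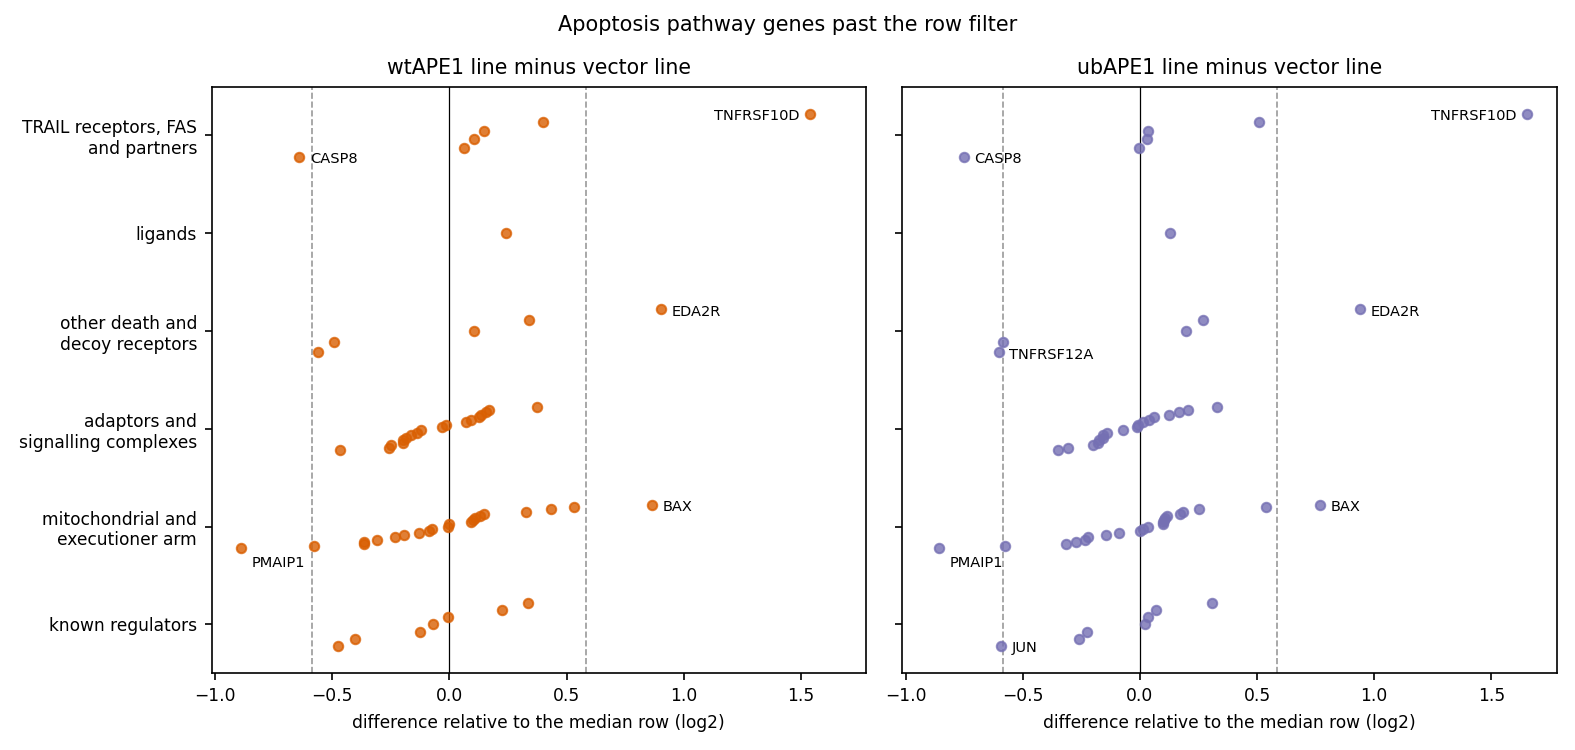
Difference from the vector line (APE1 line minus vector line, relative to the median row, log2) of each member and each listed pathway gene past the filter, 1 point per gene, with dashed lines at 1.5-fold; vertical offsets within a group only separate the points. TNFRSF10D (1.54 and 1.65), EDA2R (0.90 and 0.94) and BAX (0.87 and 0.77) lie highest, and PMAIP1 (-0.89 and -0.86) and CASP8 (-0.64 and -0.75) lowest.

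Other genes were ranked by how near their profile over the 6 columns was to that of each member, as the root mean square of the difference after each profile was centred, over 9652 rows. Since the columns fall into lines, this is a description of line differences and their sizes. Nearest to TNFRSF10D, whose own profile had a root mean square of 0.772 log2, was IRF8, an interferon regulatory factor of blood cell development, at 0.202. CRMP1, a phosphoprotein of axon guidance, followed at 0.231, and ZDHHC22, of the palmitoyltransferase family, at 0.261. The growth factor gene BMP2 (0.304) and IFITM1, an interferon-induced membrane protein gene (0.328), came next. In vector cells ZDHHC22 (4.82 log2 with and 4.76 without doxycycline) and IFITM1 (4.57 and 4.96) were below the filter level. Both rows therefore entered this search through their APE1 columns. IRF8 had 6.75 log2 with and 6.61 without doxycycline in wtAPE1 cells, 6.68 and 6.80 in ubAPE1 cells, and 5.56 and 5.69 in vector cells, so its columns separated as those of TNFRSF10D did. The profiles of the other members, relative to the column medians, ranged over less than 1 log2. For TNFRSF10B, at 0.239 log2, ANKRD27 (0.0315) and the p53 inhibitor gene MDM2 (0.0392) were nearest, and for CASP8, at 0.332 log2, TBC1D5 (0.0539) and PON2 (0.0547).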

How the data were processed

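RNA from 6 groups of HEK293 derivatives was hybridised to a whole-transcript array, and the deposited table gives, per the labels, the authors' mean of 3 biological replicates per group. What the authors deposited is 1 log2 level per array row and group, a scale read from the values. How probes were summarised, corrected and normalized is not given in the sources. Genome build hg 18 is named in the submitters' processing notes.

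Rows with a mean at or above the 25th percentile of row means (5.03 log2) were kept, 11619 of 15492, of which 9653 had 1 symbol. Tests used limma 3.58.1 in R 4.3.3 (lmFit, eBayes). P-values were adjusted by Benjamini-Hochberg across the 11619 rows, with calls at 0.05. Terms of the additive fit were line and doxycycline, with 2 residual and 6.28 prior degrees of freedom, so lines or doxycycline states stand in for replicates and p-values measure evenness across them. The induction fit had 1 residual and 30.3 prior degrees of freedom. Intervals treat the median row as fixed. The fits used columns as deposited, so SEs and intervals also hold shifts between column medians. Both fits were first checked on simulated data.

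The members and all gene lists were chosen with earlier results of these data known. From each list, genes at least 1.5-fold from vector, or else the 2 largest differences, are named. BCL2, BCL2L1, ATF4, CASP10, TNFRSF21, NGFR and TNFRSF1B were added after their values were seen. Nearest profiles are the 5 nearest rows per member, of which the nearest 2 are given for TNFRSF10B and CASP8. Alternatives changed the row filter, normalization, floor, eBayes trend, gene length trend, fold rule, doxycycline states and lines used; pathway calls under them were added after seeing the data.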

Additional observations from a re-analysis of the deposited data

How the results depend on the processing

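The 0 members called for the common doxycycline effect, for induction and between the APE1 lines stayed 0 under each alternative run, as did the 0 members past 1.5-fold in each line's response to doxycycline. The 2 members past 1.5-fold from the vector line became 1 in both APE1 lines when the filter was raised to the 50th percentile, which removes CASP8, at 2-fold, and in the columns without doxycycline alone; TNFRSF10D was the 1 that stayed. Over the alternatives TNFRSF10D ranged from 1.37 to 1.69 log2 (wtAPE1) and from 1.58 to 1.68 (ubAPE1), and CASP8 from -0.79 to -0.52 and from -0.97 to -0.55. TNFRSF10D's common doxycycline effect was -0.03 log2 without the wtAPE1 line. Pathway genes called against the vector line, a description only, numbered 0 to 6 of 52 (wtAPE1) and 0 to 8 (ubAPE1). They were 6 and 8 with centred columns, 5 and 5 with quantile normalization, 5 and 6 with the gene length trend removed, and 2 and 2 with an intensity trend. All-row calls, 245 and 162 in the main setting, were then 656 and 539, 558 and 434, 561 and 487, and 332 and 239. Without the row filter, 0 of 63 pathway genes were called in each APE1 line, with 322 and 226 calls over all rows. With the filter at the 50th percentile, 1 of 41 (PMAIP1) was called in wtAPE1 cells and 0 in ubAPE1 cells, with 112 and 62. Single doxycycline states give the difference between the APE1 lines no test, so no count of calls. No paired analysis was possible because each group holds 1 averaged column, so replicate numbers give no block; the line term already sets the doxycycline states against each other within lines. FADD's response in ubAPE1 cells was 0.01 log2 with the length trend removed, against 0.22. The averaged columns carry no replicate spread, rows below the filter are near the dim end, and no sequence or genome of the array's build was used.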

Other observations

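FAS had a further row, which the annotation assigns to STAMBPL1 and FAS together, so it was counted for neither gene. It was below the filter, at 3.53 log2 with and 3.58 without doxycycline in wtAPE1 cells, 3.55 and 3.75 in ubAPE1 cells, and 4.70 and 4.82 in vector cells. All 4 APE1 columns were below both vector columns, by -1.05 (wtAPE1) and -1.03 (ubAPE1) log2 relative to the median row, whereas the row of FAS alone stood at 0.15 and 0.03. Which of the genes that row follows was not tested.

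The 3 nearest protein-coding genes on each side of the receptor cluster with a row of their own past the filter were also read. Order was taken from the gene table, and genes without such a row were passed over. On 1 side of TNFRSF10B, CCAR2, BIN3 and RHOBTB2 differed from the vector line by -0.05, 0.03 and 0.14 log2 in wtAPE1 cells and -0.04, 0.04 and 0.03 in ubAPE1 cells. On the side of TNFRSF10A, CHMP7, LOXL2 and ENTPD4 stood at -0.04, 0.34 and -0.28 in wtAPE1 cells and 0.01, 0.31 and -0.26 in ubAPE1 cells. Of the 6 flanking genes, 0 were 1.5-fold from the vector line, where the all-row share is 4.38% (wtAPE1) and 4.11% (ubAPE1). Nothing is read from that count. TNFRSF10D stood at 1.54 and 1.65 log2.

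Around CFLAR, CASP10 and CASP8, 5 of the 6 flanking genes, chosen in the same way, stood below the vector line in both APE1 lines. ORC2, HYCC2 and NDUFB3 were at -0.24, -0.18 and -0.30 log2 in wtAPE1 cells and -0.27, -0.11 and -0.21 in ubAPE1 cells. TRAK2 (-0.43 and -0.33) and TMEM237 (-0.42 and -0.41) were also below it, and STRADB (0.35 and 0.31) above it. Each of these differences was smaller than 1.5-fold. They are relative to the median row, so by construction as many rows lie below the vector line as above it in each contrast. The share of all rows below it in both APE1 lines was not counted, and nothing is read from the count of flanking genes.

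In the response of the ubAPE1 line to doxycycline, 2 listed pathway genes were 1.5-fold lower, TAB2 at -0.62 log2 and CYCS, the gene of cytochrome c, at -0.59, where the all-row share is 5.03%. In the wtAPE1 line they stood at 0.02 and -0.37, and in vector cells at 0.15 and -0.10.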
